A study of Arabidopsis thaliana with 8 samples.

Results

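Plates TA31 to TA36 of an Arabidopsis thaliana chromosome 4 tiling array hold 559 tiles with values in all 4 replicates, of 21285 tiles in all, and lie between plates TA21 to TA30 and plates TA37 to TA51, whose tiles were mostly far lower. The tiles were chosen by plate number, and the plate numbers were chosen from the measured ratios themselves, because these plates were higher than the plates before and after them. The level of the 6 plates and its difference from other plates are therefore given as a description, with no test. A tile is named by plate set (TA), plate, row letter and column of a 96-well plate, and neither a gene nor a position is paired with these names in the files used here.

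Chromatin immunoprecipitation (ChIP) used an antibody (Upstate 07-030) against histone H3 dimethylated at lysine 4 (H3K4me2), with IP DNA in one channel of a 2-colour array and input DNA in the other. The material was whole seedlings of accession Col-0, the reference strain of this plant, grown for 10 days in liquid medium in long days with no treatment, so every value averages over all cell types of the seedling. There is 1 group of 4 replicates, each a dye swap of 2 arrays, and the 2 arrays of a swap hold the same deposited values, so n = 4 throughout. Per the labels, the IP chromatin of replicates 2, 3 and 4 carries the same seedling batch name, II, while each input carries its own, so the p-values below reflect no more than how these samples vary, and that variation may be technical. Each value is a log ratio of IP and input signal, treated as log2. Neither the log base nor the direction of the ratio (IP over input or the reverse) is stated in the sources used here, so no side is called enriched. Each replicate was centred on the median of all 21285 tiles, and "above" and "below" refer to that median tile.

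H3K4me2 is placed by Trithorax-type methyltransferases and lies mainly over genes in plants, also over genes that are transcribed weakly, while silent transposons and repeats carry little of it and carry methylation at other histone residues and on DNA instead. Chromosome 4 of Arabidopsis is known for a heterochromatic knob on its short arm and for repeat-rich DNA around its centromere, with gene-bearing DNA between them. Where the 6 plates lie relative to these landmarks was not analysed here.

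The tiles of TA31 to TA36 lay close to the median tile of the array. Their median log2 ratio was -0.09, -0.14, -0.16 and -0.10 in replicates 1 to 4, -0.12 ± 0.03 on average (SD, n = 4). Plates TA21 to TA30, with 822 tiles, had a median of -2.06 ± 0.22, plates TA37 to TA51, with 1339 tiles, -2.18 ± 0.39, and the 9456 tiles of the 100 TB plates 0.48 ± 0.02. The median of TA31 to TA36 exceeded that of TA21 to TA30 by 2.12, 1.74, 2.13 and 1.78 in replicates 1 to 4, and that of TA37 to TA51 by 2.40, 1.69, 2.39 and 1.77. Against the TB plates it was lower in each replicate, with differences of -0.54, -0.63, -0.66 and -0.58. The plates were thus far above both neighbours and below the TB level in 4 of 4 replicates.

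**Figure D1:**
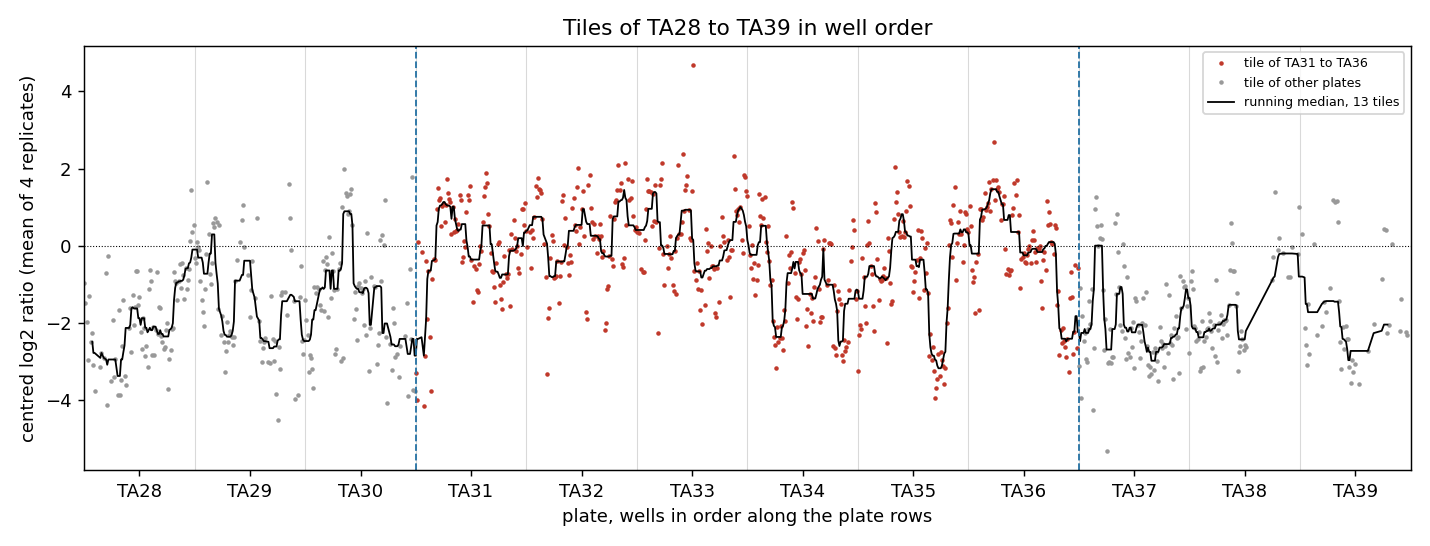
Mean centred log2 ratio over 4 replicates (vertical axis) of each tile of plates TA28 to TA39 in well order along the plate rows (horizontal axis); points of TA31 to TA36 are red, those of other plates grey, the black line is the running median over 13 tiles and the dashed lines are the outer plate borders. The line lies near or above 0 over most of TA31 to TA33, falls to about the level of the neighbouring plates at several places on TA34 to TA36, and is low again from the end of TA36.

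Tiles above and below the median tile were both frequent in the 6 plates. The share above was 47.8%, 45.8%, 44.9% and 46.9% in replicates 1 to 4, 46.3% ± 1.25 (SD, n = 4). It was 13.2% ± 0.49 on TA21 to TA30, 4.54% ± 0.65 on TA37 to TA51 and 65.3% ± 0.33 on the TB plates. The SD over tiles was 1.34 ± 0.06 on TA31 to TA36 on the log2 scale, 1.40 ± 0.09 on TA21 to TA30, 1.01 ± 0.07 on TA37 to TA51 and 1.01 ± 0.03 on the TB plates. Against the TB plates the low side differed more than the high side. The 10th percentile was -2.15 ± 0.17 on TA31 to TA36 against -0.98 ± 0.06 on the TB plates, while the 90th percentiles were 1.41 ± 0.06 and 1.59 ± 0.05.

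**Figure D2:**
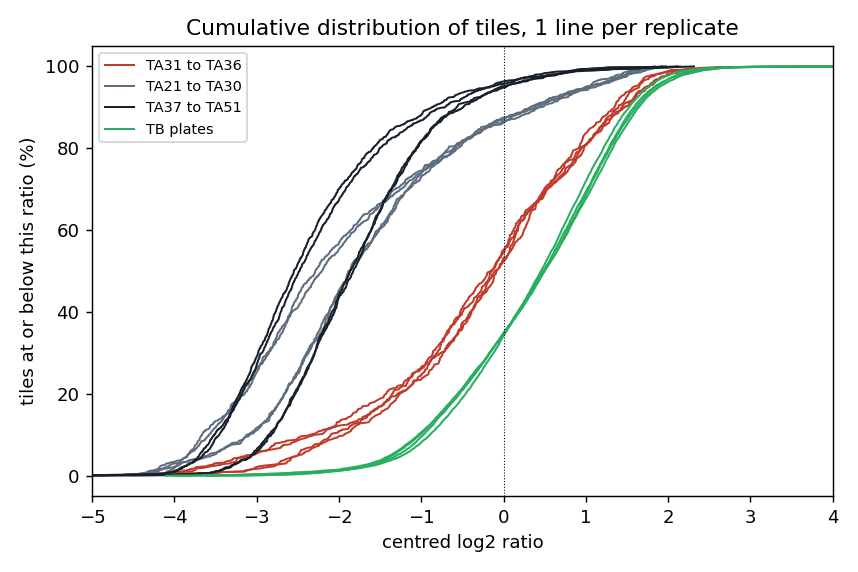
Share of tiles (vertical axis, %) at or below each centred log2 ratio (horizontal axis), 1 line per replicate, for TA31 to TA36, TA21 to TA30, TA37 to TA51 and the TB plates. The 4 lines of TA31 to TA36 meet 0 with 52.2% to 55.1% of tiles below it and lie between those of the low plates and those of the TB plates; at the low end they stretch further down than the TB lines.

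Taken by their sign alone, the tiles above had a median of 0.83 ± 0.06 on TA31 to TA36, 0.81 ± 0.02 on TA21 to TA30, 0.50 ± 0.11 on TA37 to TA51 and 0.95 ± 0.05 on the TB plates. The tiles below had a median of -0.91 ± 0.04 on TA31 to TA36, against -2.25 ± 0.26 on TA21 to TA30, -2.23 ± 0.38 on TA37 to TA51 and -0.64 ± 0.05 on the TB plates. Ratios below -2, a 4-fold difference from the median tile, were held by 11.4% ± 1.48 of the tiles of TA31 to TA36. Their share was 50.5% ± 6.54 on TA21 to TA30, 56.3% ± 14.3 on TA37 to TA51 and 1.34% ± 0.13 on the TB plates. Ratios above 1 were held by 18.6% ± 1.40 of the tiles of TA31 to TA36. This share was 5.38% ± 0.35 on TA21 to TA30, 0.859% ± 0.22 on TA37 to TA51 and 30.6% ± 1.85 on the TB plates. The 6 plates therefore held tiles as low as those of the neighbouring plates beside tiles as high as those common on TB plates.

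With limma over all 21285 tiles (Benjamini-Hochberg adjustment, threshold 0.05), the mean of every tile was set against the median tile. On TA31 to TA36, 204 tiles were called above and 248 below, and 107 passed in neither direction, where 42.1% of all tiles were called above and 41.9% below. The rule that chose the plates used the same ratios, so these counts are a description. At a difference of at least 1.5-fold, 123 were called above and 159 below, where 25.9% of all tiles were called above and 28.6% below. The sign was the same in all 4 replicates for 461 tiles, 208 above and 253 below. The other 98 had mixed signs, and no mean among them was farther than 0.61 from 0. Tiles with the same sign in all 4 replicates made up 82.5% of TA31 to TA36, the lowest share of the 4 sets. It was 95.5% on TA21 to TA30, 96.7% on TA37 to TA51 and 85.0% on the TB plates. Among the 1% of the array at either end, 212 tiles each, the 6 plates held 4 of the highest and 7 of the lowest, while TA21 to TA30 held 0 and 56, TA37 to TA51 0 and 39, and the TB plates 110 and 1. The sets differ in size, and as shares of their own tiles these were 0.716% and 1.25% on TA31 to TA36, near 1%. They were 0% and 6.81% on TA21 to TA30, 0% and 2.91% on TA37 to TA51, and 1.16% and 0.0106% on the TB plates.

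The 6 plates were not alike. Plate TA32 was highest, with a median of 0.21, 0.28, 0.22 and 0.36 in replicates 1 to 4, 0.27 ± 0.07 (SD, n = 4), and 58 of its 92 tiles had a mean above 0. TA33 had 0.11 ± 0.12 and TA31 0.06 ± 0.05, with 52 of 90 and 45 of 91 tiles above. TA34 was lowest, with -0.88, -0.96, -1.11 and -0.93, -0.97 ± 0.10 on average, and 22 of its 94 tiles above. TA35 had -0.51 ± 0.08 with 39 of 96 tiles above, and TA36 -0.05 ± 0.05 with 43 of 96. The 4 values of TA34 lay below those of the other 5 plates, and those of TA35 below those of TA31, TA32, TA33 and TA36. TA33 overlapped with TA31 and with TA32, and TA31 and TA36 met at their edges.

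**Figure D3:**
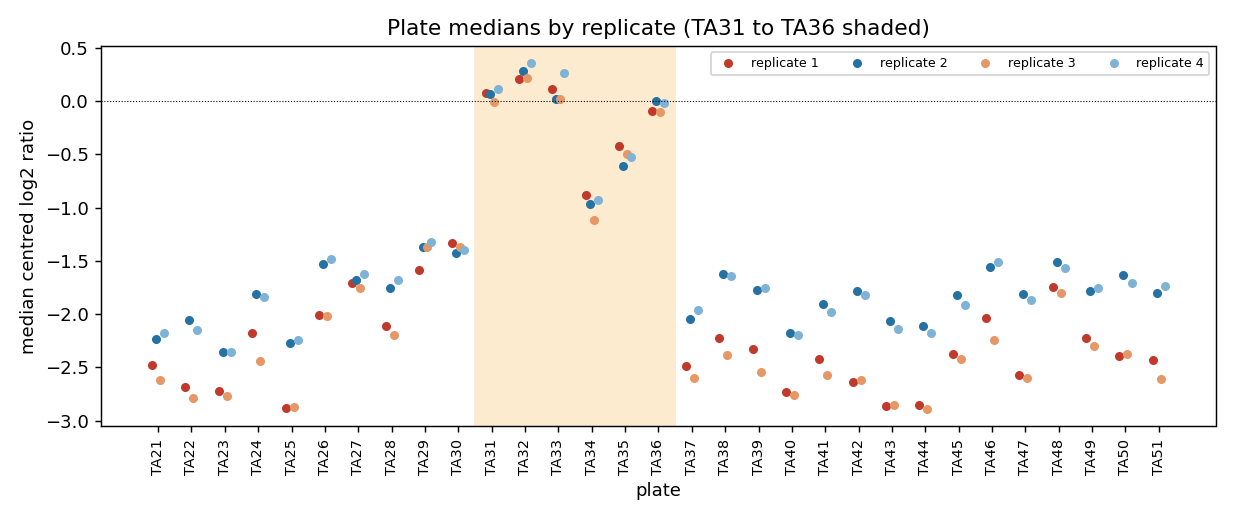
Median centred log2 ratio (vertical axis) of plates TA21 to TA51 (horizontal axis), 1 point per replicate, with TA31 to TA36 shaded. All points of the shaded plates lie above all points of the other plates; TA34, at -1.11 to -0.88, is the lowest of the shaded plates, and the nearest points of other plates are -1.32 on TA29 and -1.33 on TA30.

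The first 3 plates thus differed in level from the last 3. TA31 to TA33 had a median of 0.14, 0.14, 0.12 and 0.24 in replicates 1 to 4 over 273 tiles, and TA34 to TA36 -0.42, -0.50, -0.53 and -0.43 over 286 tiles. The share of tiles above was 56.4% ± 1.89 on the first 3 plates and 36.7% ± 0.64 on the last 3. Means below -2 were found for 11 tiles on TA31 to TA33 and 53 on TA34 to TA36, and means above 1 for 68 and 34 tiles. This division was made after the values were seen.

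Both outer edges fell inside the 6 plates and not on the plate borders. The division into 2 levels that left the smallest squared error over TA30 and TA31 lay between TA31B03 and TA31B05, where the intervening well is blank, and the first tile after it was 16 wells into TA31. The same place was found in each of the 4 replicates, with a level of 0.21 after it in the mean over replicates, against -1.46 before it. A fit of 2 levels always returns 1 division, and the replicates measured the same tiles, so their agreement is a description. Over TA36 and TA37 the division lay between TA36G05 and TA36G06, 19 wells before the border and again in each replicate, with a level of 0.31 before it that fell by 2.32 on the log2 scale after it. The wells TA31A01 to TA31B03 and TA36G06 to TA36H12 were therefore closer in level to the neighbouring plates than to the rest of their own.

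The tiles next to the borders show how mixed these edges were. The last 3 tiles of TA30 had means of 1.79 (TA30H10), -3.73 (TA30H11) and -3.76 (TA30H12). The first 3 of TA31 had -3.30 ± 0.22 (TA31A01), -3.99 ± 0.20 (TA31A02) and 0.10 ± 0.10 (TA31A03). At the other border, TA36H10, TA36H11 and TA36H12 had -0.49 ± 0.05, -2.65 ± 0.14 and -0.57 ± 0.06, followed by -3.11 (TA37A01), -1.09 (TA37A02) and -3.95 (TA37A03) outside. Low tiles thus stood on both sides of each border.

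The highest tile by far was TA33E02. Its log2 ratio was 4.47, 4.80, 4.57 and 4.87 in replicates 1 to 4, with a mean of 4.68 ± 0.19 (SD, n = 4), which is 25.6-fold from the median tile and rank 2 of the whole array. It closed a run of 15 wells above, TA33C12 to TA33E02, whose median was 1.03 ± 0.07. The tile before it, TA33E01, had 1.42 ± 0.19 and the tile after it, TA33E03, -0.66 ± 0.12. The step from TA33E02 to TA33E03 was -5.11, -5.50, -5.37 and -5.38 in the 4 replicates, and was the largest between neighbouring wells of the 6 plates.

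The next highest tile, TA36B11, had 2.61, 2.62, 2.92 and 2.60, a mean of 2.69 ± 0.16. It lay inside a run of tiles above, with such tiles on both sides. TA33D05 had 2.37 ± 0.17, TA33H01 2.34 ± 0.28 and TA33B11 2.15 ± 0.11, so 4 of the 5 highest tiles were on TA33. The highest tiles of the other plates were TA32H03 at 2.14 ± 0.29, TA35C09 at 2.03 ± 0.09, TA31F02 at 1.89 ± 0.11 and TA34A11 at 1.34 ± 0.19. The tile that led its plate was thus lowest on TA34, the plate with the lowest median.

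The lowest tile, TA31A08, had -3.94, -4.26, -4.06 and -4.36 in replicates 1 to 4, a mean of -4.15 ± 0.19 and 17.8-fold from the median tile. TA31A02 followed at -3.99 ± 0.20 and TA31B02 was at -3.75 ± 0.20. The other 2 of the 5 lowest were on TA35: TA35F08 had -4.39, -3.47, -4.44 and -3.46, a mean of -3.94 ± 0.55, and TA35F09 -4.33, -3.06, -4.23 and -3.16, a mean of -3.69 ± 0.68. The replicates of the TA31 tiles lay within 0.50 of each other, with replicates 2 and 4 lower, while those of the TA35 tiles spanned about 1 or more, with replicates 1 and 3 lower. The lowest tiles of the remaining plates were TA32B07 at -3.33 ± 0.69, TA36H04 at -3.26 ± 0.32, TA34C02 at -3.17 ± 0.14 and TA33B07 at -2.25 ± 0.22.

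**Figure D4:**
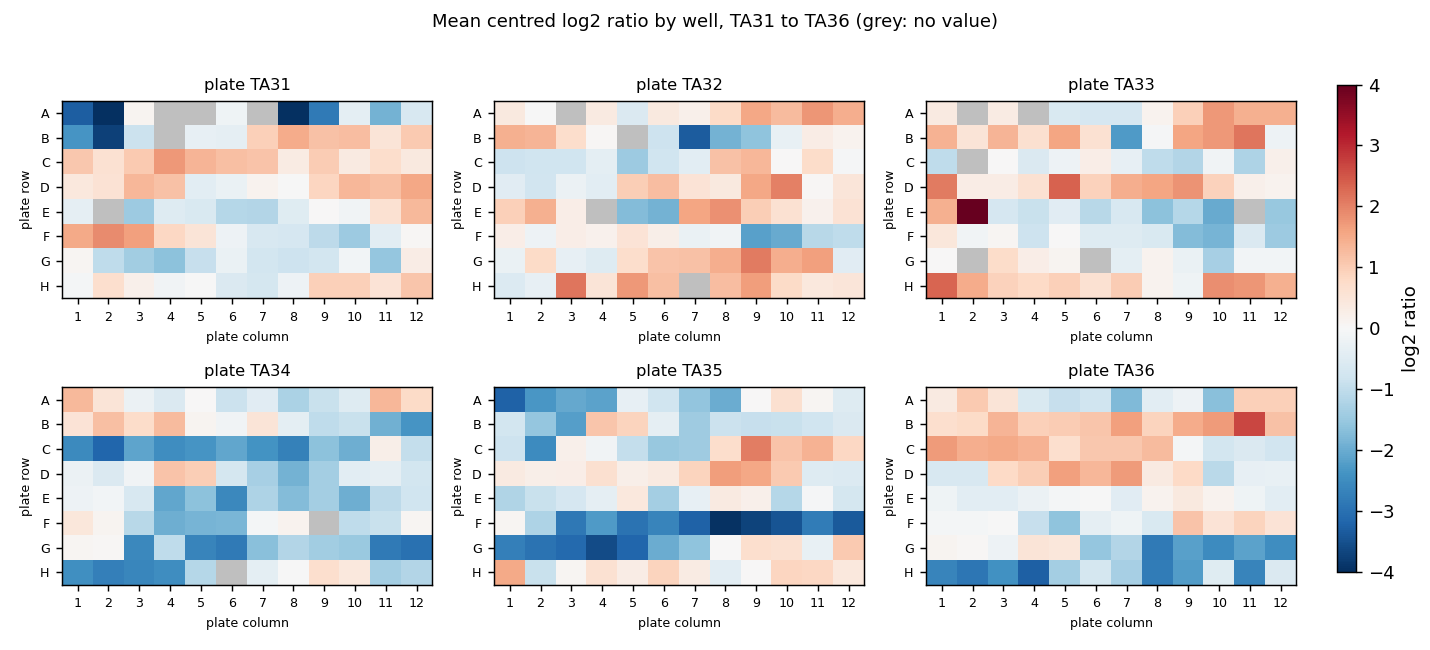
Mean centred log2 ratio over 4 replicates of each well of plates TA31 to TA36, by plate row (vertical axis) and plate column (horizontal axis), red above and blue below the median tile, grey for wells with no value; the colour scale ends at -4 and 4, past which TA33E02 (4.68) and TA31A08 (-4.15) lie. Like colours form horizontal bands, such as row C of TA34, rows F and G of TA35 and rows B and C of TA36, and do not form vertical ones.

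Neighbouring wells had similar ratios along the plate rows and hardly so down the columns. Over the 542 pairs of wells 1 apart along the rows of TA31 to TA36, the correlation across tiles was 0.74, 0.73, 0.74 and 0.71 in replicates 1 to 4, 0.73 ± 0.01 (SD, n = 4). It was 0.65 ± 0.05 on TA21 to TA30, 0.53 ± 0.03 on TA37 to TA51 and 0.60 ± 0.01 on the TB plates. Down the columns of TA31 to TA36 it was 0.12 ± 0.02. These values are descriptions, since neighbouring tiles share arrays and are not replicates. Along the rows the correlation was 0.48 at 3 wells, 0.34 at 6 wells, 0.15 at 12 wells and 0.01 at 96 wells, a whole plate apart. It was 0.49 at 3 wells and 0.34 at 6 wells on TA21 to TA30, 0.30 and 0.13 on TA37 to TA51, and 0.24 and 0.16 on the TB plates, so that TA21 to TA30 had values like those of TA31 to TA36. The median step between neighbouring tiles was 0.52 on TA31 to TA36, on the log2 scale of means, and 0.56, 0.54 and 0.50 on TA21 to TA30, TA37 to TA51 and the TB plates.

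Runs of consecutive wells on the same side of the median tile followed from this. The 259 tiles with a mean above 0 formed 60 runs with a mean length of 4.32 wells, and the 300 tiles below formed 63 runs with a mean length of 4.76. The lengths on both sides were closer to each other than in the 3 sets set beside them. Runs above had a mean length of 3.03 on TA21 to TA30, 1.88 on TA37 to TA51 and 5.74 on the TB plates. Runs below had 7.09 on TA21 to TA30, 22.4 on TA37 to TA51 and 3 on the TB plates. Lone wells made up 35% of the runs above and 28.6% of the runs below on TA31 to TA36, and 21.7% and 42.8% on the TB plates. The number of runs and their length depend on how many tiles lie on either side, which the rule fixed in part.

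Long runs of at least 10 wells held 41.3% of the wells above, in 7 runs, and 42.0% of the wells below, in 9 runs. Such runs held 0% of the wells above on TA21 to TA30 and on TA37 to TA51 and 50.0% on the TB plates. They held 65.6% of the wells below on TA21 to TA30, 92.1% on TA37 to TA51 and 21.01% on the TB plates. The longest above on TA31 to TA36 were 2 runs of 22 wells. TA31B07 to TA31D04 had a median of 0.84, 1.02, 0.72 and 0.99 in replicates 1 to 4, and TA36A11 to TA36C08 had 1.07, 1.22, 1.20 and 1.22, with TA36B11 as its highest tile. All 22 tiles of TA36A11 to TA36C08 and 21 of TA31B07 to TA31D04 were called above. Of all 21285 tiles, 42.1% were called above, and of the 259 tiles with a mean above 0 on TA31 to TA36, 204 were. Runs were picked by the sign of the same means, so these counts are a description. The end tiles TA31B07, TA31D04, TA36A11 and TA36C08 had means of 0.96, 1.18, 0.95 and 1.28. As deposited, TA31B07 and TA36A11 had 0.37 and 0.35 and were no longer called above.

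The first of these runs began 2 tiles after the edge on TA31, following TA31B05 and TA31B06, which were both called below. A low run of 19 wells, TA36G06 to TA36H12, began at the edge on TA36. Its length is cut at the plate border, since counting stopped there and TA37A01 to TA37A03 were low as well. That low run had a median of -2.52, -2.10, -2.54 and -2.01 in replicates 1 to 4. The other run below of 19 wells, TA34D06 to TA34E12, was shallower at -1.29, -1.12, -1.21 and -1.06, with TA34E06 as its lowest tile at -2.59 ± 0.19. TA35F02 to TA35G07 held 18 wells at -3.34, -2.48, -3.39 and -2.55, and was the deepest of the runs of 10 or more wells on TA31 to TA36. The end tiles TA34D06, TA34E12 and TA36G06 had -0.71, -0.80 and -1.54.

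Counted by plate rows of 12 wells, 21 of the 48 rows of TA31 to TA36 had a median above 0, which is 43.8%, against 8.86% of 79 rows on TA21 to TA30, 1.68% of 119 on TA37 to TA51 and 71.8% of 800 on the TB plates. In 3 of the 48, or 6.25%, the median was below -2: row F of TA35 at -2.97 ± 0.53, row H of TA36 at -2.26 ± 0.24 and row C of TA34 at -2.21 ± 0.17. That share was 57.0% on TA21 to TA30, 62.2% on TA37 to TA51 and 0.5% on the TB plates. At the other end, 5 rows, or 10.4%, had a median above 1, led by row B of TA36 at 1.24 ± 0.10. TA21 to TA30 and TA37 to TA51 had 0 such rows, and 18.9% of the rows of the TB plates passed 1.

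Stretches of at least 4 consecutive wells with every mean below -2 occurred 5 times on TA31 to TA36 and held 43 tiles, 7.69% of the tiles there. They held 29.7% of the tiles on TA21 to TA30, 40.6% on TA37 to TA51 and 0.518% on the TB plates. All 5 lay on TA34, TA35 and TA36, with counting stopped at the outer borders; TA30H11 to TA31A02, 4 wells below -2 across the border, is not among them. The 5 were TA34B12 to TA34C08, TA34G11 to TA34H04, TA35A01 to TA35A04, TA35F03 to TA35G05 and TA36G08 to TA36H04. Stretches of at least 4 wells with every mean above 1 occurred 7 times and held 6.62% of the tiles, against 0.973% on TA21 to TA30, 0% on TA37 to TA51 and 11.4% on the TB plates. The longest of these, TA36B09 to TA36C04, held 8 wells at 1.27, 1.78, 1.47 and 1.74 in replicates 1 to 4, and 6 of the 7 began on TA31, TA32 or TA33. Both limits were set after the values were seen. With 3 wells in place of 4 the low stretches stayed at 5 and the high ones numbered 16, and with limits of -2.5 and 1.5 there were 1 and 0.

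The low stretches differed in how far the replicates lay apart. TA35F03 to TA35G05, the longest with 15 wells, had a median of -3.64, -2.58, -3.74 and -2.71 in replicates 1 to 4, so that replicates 1 and 3 were about 1 lower than 2 and 4, and they were lower in 15 of its 15 tiles. TA34G11 to TA34H04 had -3.28, -2.10, -3.20 and -2.12, with 6 of 6 tiles lower in replicates 1 and 3, and TA36G08 to TA36H04 had -2.92, -2.15, -2.89 and -2.19, with 9 of 9. The replicates of the other 2 were closer together. TA34B12 to TA34C08 had -2.47, -2.39, -2.64 and -2.14, where 8 of 9 tiles were lower in replicates 1 and 3 with a median difference of -0.23. TA35A01 to TA35A04 had -2.10, -2.41, -2.20 and -2.44, where 2 of 4 tiles were lower in replicates 1 and 3. By the mean of the replicate medians, these 2 stretches with a narrow gap were the shallowest, TA34B12 to TA34C08 at -2.41 and TA35A01 to TA35A04 at -2.29. The 3 with a wide gap were TA36G08 to TA36H04 at -2.54, TA34G11 to TA34H04 at -2.675 and TA35F03 to TA35G05 at -3.17.

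**Figure D5:**
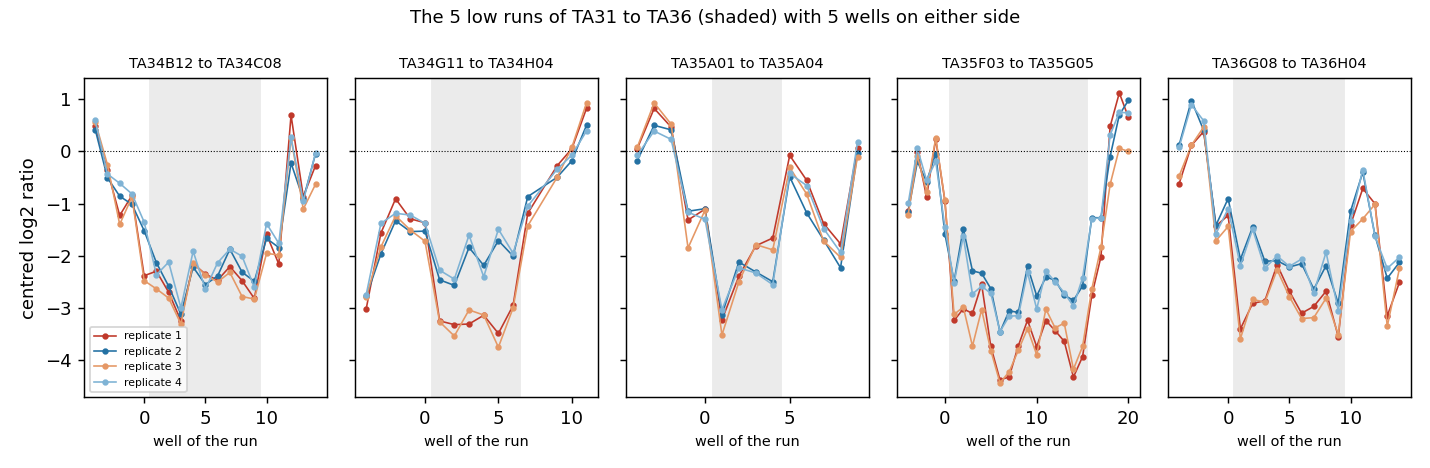
Centred log2 ratio (vertical axis) in each of 4 replicates (lines) along the 5 stretches of at least 4 wells with a mean below -2 (shaded), with up to 5 wells on either side; wells are counted from the first of the stretch (horizontal axis). In TA34G11 to TA34H04, TA35F03 to TA35G05 and TA36G08 to TA36H04 replicates 1 and 3 run below 2 and 4 within the shading. The gap is not confined to the shading. Beyond TA36G08 to TA36H04, well TA36H08 has -3.16, -2.43, -3.36 and -2.24 in replicates 1 to 4. In TA34B12 to TA34C08 and TA35A01 to TA35A04 the 4 lines lie closer together within the shading.

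The low tiles at the start of TA31 went the other way. The 6 tiles of TA31 with a mean below -2, TA31A01, TA31A02, TA31A08, TA31A09, TA31B01 and TA31B02, had means from -4.15 to -2.37 and were all higher in replicates 1 and 3 than in 2 and 4, by 0.30 to 0.43. The 3 tiles with the largest SD over replicates were all low ones with the wide gap. TA34H03 had -3.49, -1.71, -3.76 and -1.49, TA32B08 -2.71, -0.95, -2.69 and -1.17, and TA34H01 -3.31, -1.84, -3.04 and -1.61. Over the 64 tiles of TA31 to TA36 with a mean below -2, the difference of replicates 1 and 3 from 2 and 4 had a median of -0.44, and 46.9% of these tiles were more than 0.5 lower in replicates 1 and 3. That share was 41.9% of such tiles on TA21 to TA30, 64.3% on TA37 to TA51 and 32.6% on the TB plates. Higher in replicates 1 and 3 were 14 of the 64, or 21.9%. They lay not only on TA31 and included TA33B07 by 0.35 and TA36H11 by 0.23. Such tiles made up 27.2% of those below -2 on TA21 to TA30, 8.33% on TA37 to TA51 and 39.5% on the TB plates. Over all 559 tiles the median difference was -0.07, against -0.22 on TA21 to TA30, -0.59 on TA37 to TA51 and 0.01 on the TB plates. This pairing of replicates is in no label, was seen in the data, and was not tested.

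The spread between replicates on these plates was near that on the TB plates. The median SD of a tile over the 4 replicates was 0.21 on TA31 to TA36, 0.25 on TA21 to TA30, 0.38 on TA37 to TA51 and 0.20 on the TB plates. Within TA31 to TA36 it was 0.31 for tiles with a mean below -2, 0.20 for those from -2 to 0 and 0.20 for those above 0. Across the 559 tiles replicates 1 and 3 correlated at 0.986 and replicates 2 and 4 at 0.989, while the 4 remaining pairs ranged from 0.935 to 0.946.

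The title of each array carries 2 numbers, and the labels do not say what they are. The first differs on every array. The second is shared by replicates 1 and 2 and by replicates 3 and 4 in the same dye orientation. It was read here as a slide number, and the replicates that share it are called slide pairs. With limma over all tiles, the difference between these pairs passed an adjusted p of 0.05 in 0 of the 559 tiles and in 0% of the 21285. At an unadjusted p under 0.05 it passed in 0 of the 559 and in 28 of all tiles, 0.132%. The median difference on TA31 to TA36, replicates 1 and 2 minus 3 and 4, was 0.00 and its median size 0.09. The larger difference of replicates 1 and 3 from 2 and 4 lies within both slide pairs and enlarges the error of this test, so these counts of 0 do not show the slide pairs to be alike. Within replicates 1 and 2 the median of TA31 to TA36 was -0.09 and -0.14, and within 3 and 4 it was -0.16 and -0.10.

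Of the 576 wells of the 6 plates, 17 held no value in any replicate, 2.95%, against 7.22% of the wells listed for TA21 to TA30, 0.962% for TA37 to TA51 and 1.5% for the TB plates. The blanks lay on TA31 (5), TA32 (4), TA33 (6) and TA34 (2), and 0 lay on TA35 and TA36. Blank wells and wells not listed end runs in the counts given here.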

How the data were processed

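Per the labels, DNA of 4 replicates was amplified, labelled directly with Cy3 and Cy5 and hybridised in both dye orientations to 8 arrays. The values the authors deposited are log ratios, treated as log2. How arrays were scanned, background-corrected and normalized is not given in the sources used here. Of 21761 rows named by plate and well, 21285 held values and 476 were blank. The deposited medians of -0.96, -0.33, -0.71 and -0.38 were subtracted, with no loess or quantile step. The number of arrays limits the precision.

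Tests used the lmFit and eBayes functions of limma 3.58.1 (R 4.3.3), two-sided and with Benjamini-Hochberg adjustment, a step checked on simulated data. Other steps used Python 3.11.15, numpy 2.4.6, pandas 2.3.3, scipy 1.17.1 and matplotlib 3.10.9. The members, lists and limits were chosen with earlier results of these data known. Tiles were named by rule: the 5 highest and lowest, the extremes of each plate, the ends of the longest runs, the 3 on either side of each outer border and the 3 of largest SD. Other tiles named (TA31A09, TA31B01, TA33E01, TA33E03, TA34E06, TA36H08 and those bounding edges and stretches) were chosen after their values were seen. Alternatives were other centrings, quantile normalization, limma treat, a robust trend, the slide pair as a random block, plates TA32 to TA35, other ways of counting runs, and replicates averaged or left out.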

Additional observations from a re-analysis of the deposited data

Results flagged for a closer look

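Dixon's test was run on 81 values with 1 measurement per replicate, from TA31 to TA36 and the named border tiles of TA30 and TA37. In 6, a replicate stood apart from the other 3, where the gap to the nearest other replicate is divided by the range. Chance flags about 1 in 20 such groups, and the tests share tiles. The share of tiles with a ratio above 1 was 16.5% in replicate 1 and between 19.1% and 19.3% in the others, a gap of 0.937. Tile TA36B11 stood at 2.92 in replicate 3 against 2.60 to 2.62, also a gap of 0.937. Tile TA36A11 had 0.61 in replicate 1 against 1.05 to 1.09, a gap of 0.916. Tile TA31A03 had -0.05 in replicate 1 against 0.13 to 0.16, a gap of 0.839, and its sign was thus mixed. The stretch from TA33A10 had a median of 1.37 in replicate 4 against 1.45 to 1.46, a gap of 0.830. The longest run above was 23 wells in replicate 3 and 22 in the other replicates, a gap of 1. The causes were not tested, and a split of 2 replicates from 2 cannot be found this way.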

How the results depend on the processing

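The limits of low and high stretches were varied after the data were seen; the other alternatives were planned. The differences of TA31 to TA36 from TA21 to TA30, from TA37 to TA51 and from the TB plates kept their direction in all alternatives run, and the last was -0.66 on plates TA32 to TA35. Another centre cannot change these differences, because it cancels within a replicate. The plates were also chosen for being higher than those before and after them, so the kept direction is a description. As deposited, the median was -0.72, the share above 0 was 28.04%, 93 tiles were called above, runs above and below averaged 3.10 and 6.17 wells, and the longest below held 34. Centred on the mode, these were -0.97, 22.8%, 85 tiles, 2.66 and 7 wells, and 37 wells, with 389 tiles called below and 14 wells in the longest run above; both follow from the shift of the centre. Tile TA31A03 turned to -0.50 and -0.75 in these settings, where 36 of the 39 named tiles kept their sign and side of the threshold. So did 35 at 1.5-fold and 39 in the other alternatives. Of the 39, 33 lie on TA31 to TA36 and the rest on TA30 and TA37. On TA32 to TA35 the median was -0.18, the share above 44.6%, 127 tiles were called above, and runs above averaged 3.72 wells with a longest of 15. Fewer tiles are counted there. The plates left out, TA31 and TA36, had medians of 0.06 and -0.05 and held both runs above of 22 wells. At 1.5-fold, 123 and 159 tiles were called. With the slide pair as a random block, 229 tiles were called above and 277 below. The correlation within slide pairs was -0.79 in that fit, which narrows the error of the mean, so it could hardly lose a call. Runs above and below averaged 4 and 4.22 wells with 1 sign in all replicates and 4.54 and 5.17 with blanks skipped. Down the columns they averaged 1.95 and 2.27, with longest runs of 9 and 11 and a neighbour correlation of 0.12. Without 1 replicate, 185 to 198 tiles were called above and 234 to 243 below, and the slide pairs gave 0 to 8 tiles (1 without replicate 3 and 8 without replicate 4, where a pair is left with 1 member whose spread is taken from the intact pair; the cause was not tested). Limits of -1.5 and 0.75 gave 5 low and 14 high stretches, and at least 6 wells gave 4 and 3. No paired analysis was possible because the study holds 1 group. Brightness over background was not analysed here.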
